A study of Mus musculus with 32 samples.

Results

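The comparison described here is Msh3 loss pooled over both Htt genotypes, tested in the striatum of all 32 mice of the series. Its members were chosen by genotype label alone. The 16 Msh3-null mice (8 Msh3-/- and 8 zQ175:Msh3-/-) were set against the 16 mice with intact Msh3 (8 WT and 8 zQ175), and the zQ175 allele was kept as a covariate. All mice were 6 months old, shared the C57BL/6J background and came as littermates from a cross of zQ175:Msh3+/- males with Msh3+/- females. zQ175 is a knock-in line that carries an expanded CAG repeat in the mouse Htt gene and is used as a model of Huntington's disease. The Msh3-null mice carry the deletion of a single CRISPR-Cas9 line, made with guides to exon 3 and exon 8 of Msh3, so the data hold no second Msh3 allele. The null pool had 9 males and 7 females, and the intact pool had 8 of each. Each sample was the RNA of 1 mouse, selected for polyadenylated transcripts and given as whole-number read counts for 54532 genes, of which 16610 had enough counts to be tested. Counts per mouse summed to between 12359347 and 25030335, with a median of 17389840 in the intact pool and 16253510 in the null pool.

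MSH3 is a subunit of MutSβ, the mismatch repair complex that recognizes small loops of unpaired bases in DNA. MSH6 is a subunit of MutSα, which recognizes single mispaired bases. After recognition, MutL proteins such as PMS2, PMS1 and MLH3, the clamp PCNA and its loader RFC, the exonuclease EXO1 and the polymerase and ligase complete the repair. At long CAG repeats the MutSβ route adds repeat units in cells of the body, and medium spiny neurons of the striatum are among the cells where this is most marked. The question the pooled comparison addresses is what the loss of Msh3 changes in striatal RNA when both Htt genotypes contribute. Pooling gives 2 sets of 8 null mice and 2 sets of 8 intact mice to 1 estimate. In zQ175 mice the paper found that Msh3 loss also prevented somatic CAG repeat expansion. It also gives a slightly shorter mean repeat, in ear tissue of young mice, for zQ175:Msh3-/- than for zQ175. With the zQ175 allele, effects of Msh3 loss and of repeat length therefore cannot be told apart.

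On GRCm38 the Msh3 gene (ENSMUSG00000014850) spans chr13:92211872-92355003 and is read from the minus strand. Its main coding transcript in GENCODE M21 has 24 exons and 3946 bases. Exons 3 to 8 together hold 958 of these bases, or 24.28% of the transcript. The guides target sites inside exons 3 and 8, so the deletion need not hold all 958 bases. Its ends and its effect on the reading frame were not determined here. The 2 exons that the guides target are shown because the knockout allele was made there. They are printed from the GENCODE M21 transcript, 5′ to 3′ on the coding strand, in lower case. Exon 3 lies at chr13:92351231-92351451 and exon 8 at chr13:92342246-92342412, both on the minus strand.
Msh3 exon 3: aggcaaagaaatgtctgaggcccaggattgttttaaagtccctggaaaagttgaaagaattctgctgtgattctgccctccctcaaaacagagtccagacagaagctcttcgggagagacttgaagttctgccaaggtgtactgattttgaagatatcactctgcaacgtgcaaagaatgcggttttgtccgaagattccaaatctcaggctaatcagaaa
Msh3 exon 8: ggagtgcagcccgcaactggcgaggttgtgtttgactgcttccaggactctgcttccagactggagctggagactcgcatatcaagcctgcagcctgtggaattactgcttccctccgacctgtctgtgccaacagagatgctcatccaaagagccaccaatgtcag

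Msh3 alone passed both thresholds, which were an adjusted p under 0.05 and a change of at least 1.2-fold. In CPM, which are counts scaled to library size by TMM, a between-library normalization, Msh3 ranged from 22.9 to 27.5 with a median of 23.7 in the 8 WT mice. In the 8 Msh3-/- mice it ranged from 10.4 to 13.6 with a median of 11.5. The 8 zQ175 mice lay between 22.8 and 27.4 CPM, with a median of 24.1. The 8 zQ175:Msh3-/- mice lay between 11.1 and 14.2 CPM, with a median of 12.8. Every null mouse was below every intact mouse, whatever its Htt genotype. The pooled log2 fold change was -0.99 (SE 0.0422, 95% confidence interval -1.08 to -0.90, adjusted p = 1.56e-19). Counted over the whole gene, the null mice thus kept 50.4% of the intact level of reads, with an interval of 47.5% to 53.4%. The permutation p, over 100000 shuffles of Msh3 genotype within each Htt genotype, was 1e-05, the smallest they can give. The log2 fold change was -1.06 without the zQ175 allele and -0.92 with it, and that difference did not pass its test (adjusted p = 0.999). The table holds gene totals, so the exons from which the remaining reads came were not tested. In cortex of Msh3-/- mice, the paper found Msh3 mRNA ablated by quantitative PCR inside the deleted region. Its western blot of cortex detected no MSH3 protein in these homozygotes.

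**Figure D1:**
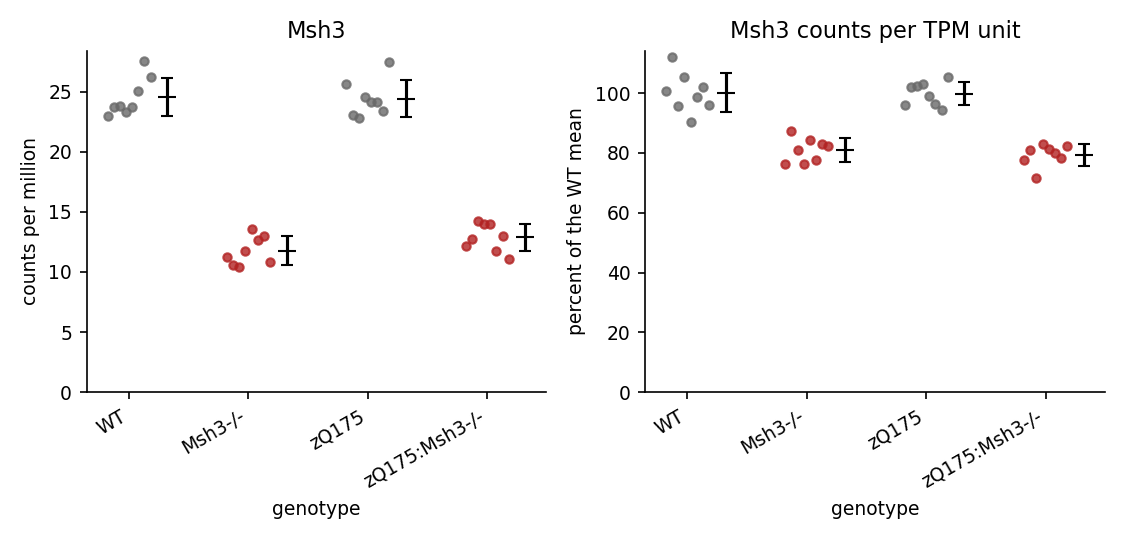
Msh3 in CPM (left) and Msh3 counts per TPM unit (right) as a percent of the WT mean, in each of the 32 mice by genotype (points), with the mean ± SD of 8 mice (bars). Msh3 lies between 10.4 and 14.2 CPM in the null mice and between 22.8 and 27.5 CPM in the intact mice, and Msh3 counts per TPM unit are lower in the null mice.

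The fall was smaller in the length-normalized values that the authors deposited. In TPM, which scales counts by transcript length and by library, Msh3 was 16.8 ± 1.48 (SD, n = 8) in WT and 9.96 ± 1.12 (SD, n = 8) in Msh3-/- mice. It was 17.3 ± 0.938 (SD, n = 8) in zQ175 and 11.7 ± 1.29 (SD, n = 8) in zQ175:Msh3-/- mice. On the log2(TPM + 0.1) scale the pooled difference was -0.66 (SE 0.050, limma adjusted p = 8.69e-11). If the TPM was made from these counts, a gene's count divided by its TPM gives the transcript length used. That holds up to a factor shared by all genes of a mouse. Whether the TPM was made from these counts is not given in the sources used here.

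The ratio of count to TPM was itself lower for Msh3 in the null mice. As a percent of the WT mean, it ranged from 90.4% to 112% with a median of 99.8% in WT and from 76.3% to 87.4% with a median of 81.6% in Msh3-/- mice. It ranged from 94.5% to 105% with a median of 101% in zQ175 and from 71.6% to 82.9% with a median of 80.5% in zQ175:Msh3-/- mice. No null mouse reached the lowest intact mouse. Pooled, the ratio in null mice was 80.2% of that in intact mice, with an interval of 77.3% to 83.1% (log2 difference -0.32, SE 0.0256, limma adjusted p = 3.27e-09). Of 14288 genes with at least 10 reads in every mouse, Msh3 was the only 1 with an adjusted p under 0.05 for this ratio, or 0.007% of genes. It was also the only 1 whose null and intact mice did not overlap on both Htt backgrounds, again 0.007%. The 95th percentile of the size of the log2 difference over these genes was 0.0473, against 0.319 for Msh3. How the authors' program assigned reads to the transcripts of Msh3 is not given in the sources used here, and which transcripts lay behind the ratio was not tested.

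Within 2 Mb of Msh3, 24 other genes were tested of 72 listed in the table. None passed both thresholds in edgeR, and 1 had an unadjusted p under 0.05. That gene was Mtx3, a mitochondrial import protein, at a log2 fold change of -0.06 (95% interval -0.12 to -0.00, adjusted p = 0.991). The 24 estimates lay between -0.10 and 0.11. For 20 of the 24 the whole 95% interval was inside 1.2-fold, or 83.3%, against 74.1% of all genes tested. The interval of Rasgrf2, an exchange factor for Ras and Rac, reached past 1.2-fold at 0.09 (-0.14 to 0.31). Thbs4, a thrombospondin of the extracellular matrix, also reached past it at 0.11 (-0.29 to 0.51).

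**Figure D2:**
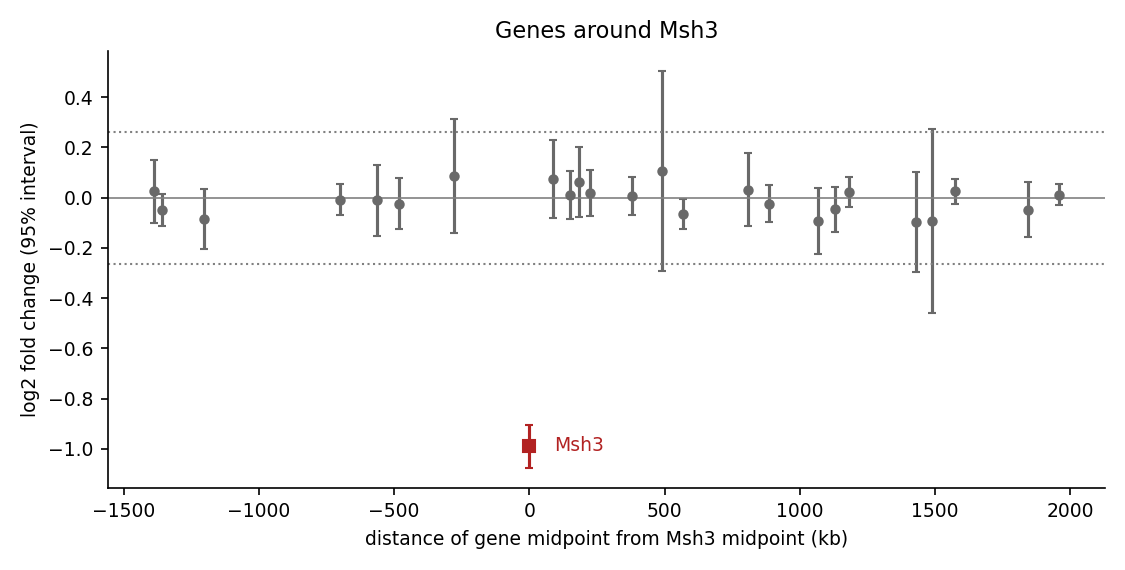
Pooled log2 fold change with its 95% interval for Msh3 (square) and 24 tested genes within 2 Mb (circles), against the distance of each gene's midpoint from that of Msh3 in kb, with dotted lines at 1.2-fold. Msh3 stands at -0.99 and its neighbours lie between -0.10 and 0.11.

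Across the striatal transcriptome, 1 of 16610 genes (0.00602%) passed both thresholds for Msh3 loss, 1 lowered and 0 raised. DESeq2 with independent filtering disabled also called Msh3 and no other gene, at a log2 fold change of -0.99. At an unadjusted p under 0.05, edgeR gave 399 genes higher in null mice (2.4% of genes) and 388 lower (2.34%). Their sum, 787, compares with 830.5 genes that p-values spread evenly would give. DESeq2 gave 724 such genes, 392 higher and 332 lower. The smallest adjusted p of a gene other than Msh3 was 0.319 in edgeR and 0.0585 in DESeq2.

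The same model and the same mice registered the zQ175 allele, the other factor. For the allele, 2277 genes (13.7%) passed both thresholds, 1053 raised and 1224 lowered, and the median SE was 0.0476 for both factors. The sizes of the estimates also stood apart. Among 10141 genes with a mean above 10 CPM, 154 had an estimate of at least 1.5-fold for the zQ175 allele and 1 had one for Msh3 loss, namely Msh3. Over all genes, 22 estimates for Msh3 loss reached 1.5-fold, and the median level of those genes was 0.861 CPM. The median size of the log2 fold change was 0.0342 for Msh3 loss and 0.105 for the zQ175 allele.

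**Figure D3:**
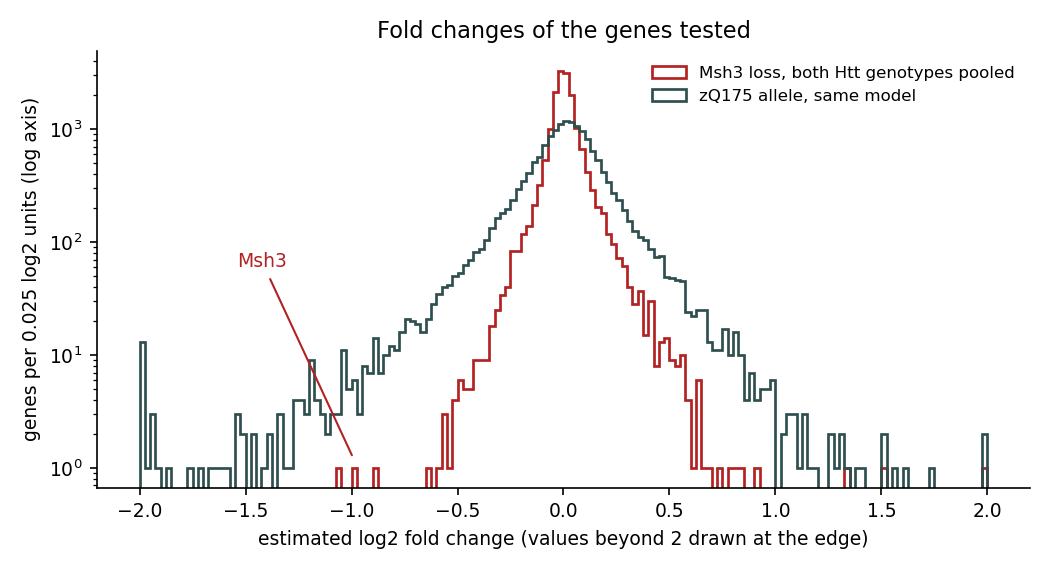
Number of genes (log axis) by estimated log2 fold change for Msh3 loss (red) and for the zQ175 allele (dark) in the same additive model of 16610 genes, with values beyond 2 drawn at the edge. The distribution for Msh3 loss is narrower, with 22 estimates of at least 1.5-fold against 559, and Msh3 itself is marked at -0.99.

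Pooling narrowed the interval on each gene. The median SE of the Msh3 effect was 0.0672 on the wild-type background and 0.0672 on the zQ175 background, and 0.0476 pooled. The 95% interval lay wholly inside 1.2-fold for 12302 genes (74.1%) pooled, for 10462 (63.0%) on the wild-type background and for 10556 (63.6%) on the zQ175 background. Inside 1.1-fold there were 8413 genes pooled, against 5009 and 5339 on each background. Inside 1.5-fold there were 94.8% of genes pooled, and inside 2-fold 99.1%. These bounds depended on the level of the gene. Genes were split into 4 equal bins by mean level. In the lowest bin, from 0.206 to 3.68 CPM, the interval was inside 1.2-fold for 14.7%, and in the next bin for 86.0%. In the upper 2 bins it was 97.0% and 98.6%. Changes of 1.2-fold in genes under about 4 CPM were therefore mostly below what these counts resolve.

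The effect of Msh3 loss was also compared between backgrounds and sexes. In edgeR, 0 genes passed an adjusted p under 0.05 for the interaction of Msh3 loss with the zQ175 allele, and 737 had an unadjusted p under 0.05, where evenly spread p-values would give 830.5. DESeq2 also called 0 genes. The median SE of this interaction was 0.0951, and its 95% interval lay inside 1.2-fold for 48.1% of genes. The interaction of Msh3 loss with sex gave 0 genes at an adjusted p under 0.05, with a smallest adjusted p of 0.166. It had 1577 genes at an unadjusted p under 0.05, above the 830.5 of an even spread.

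The 10 genes with the smallest unadjusted p in each direction were described in the pooled mice, and of these only Msh3 passed the adjusted test. The other 19 had adjusted p-values from 0.319 to 0.991 and their genotypes overlapped on both backgrounds. Among the 10 higher in null mice, the log2 fold changes lay between 0.11 and 0.23. Nol4l came first, and its CPM ranged from 33.2 to 43.9 in WT and 31.3 to 39.3 in zQ175 mice, and in their null counterparts from 37.4 to 46.8 and from 36.2 to 46.9. The null medians of 42.2 and 40.8 CPM were above the intact medians of 37.6 and 35.2 CPM, while the ranges overlapped. Its log2 fold change was 0.19 (95% interval 0.11 to 0.27, adjusted p = 0.319), and without the WT mouse male1 it was 0.21 with an adjusted p of 0.0382, still under 1.2-fold.

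The other genes with higher estimates had varied roles. Vars, the valyl-tRNA synthetase, ranged from 34.8 to 38.4 CPM in WT and from 37.5 to 43.5 in Msh3-/- mice, and its pooled log2 fold change was 0.11 (0.06 to 0.17, adjusted p = 0.345). Gnb4, a β subunit of heterotrimeric G proteins, had the largest estimate at 0.23 (0.12 to 0.35, adjusted p = 0.555), with medians of 44.3 CPM in WT and 48.4 in zQ175, against 51.3 and 57.7 in the null mice of each background. Islr2, a neuronal membrane protein with leucine-rich repeats, also stood at 0.23 (0.12 to 0.34, adjusted p = 0.586). It was a gene that the zQ175 allele raised by 0.77 on the log2 scale (adjusted p = 3.19e-13). The amino acid transporter Slc7a8 stood at 0.12 (0.06 to 0.19), the Mediator subunit Med26 at 0.20 (0.10 to 0.31) and the podosome scaffold Sh3pxd2a at 0.12 (0.06 to 0.18). The transcriptional corepressor Bcorl1 stood at 0.16 (0.07 to 0.24), the ligand Tgfb3 at 0.14 (0.07 to 0.22) and the zinc finger gene Zfp655 at 0.14 (0.06 to 0.21). None of these genes passed the adjusted test.

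Among the genes lower in null mice, the 9 other than Msh3 had log2 fold changes between -0.26 and -0.08. Kdr, the main VEGF receptor of endothelial cells, ranged from 13.7 to 18.3 CPM in WT and from 10.3 to 16.7 in Msh3-/- mice. It ranged from 11.6 to 14.6 CPM in zQ175 and from 9.0 to 13.6 in zQ175:Msh3-/- mice, so that the groups overlapped on both backgrounds. Its pooled log2 fold change was -0.22 (-0.34 to -0.10, adjusted p = 0.778). The kinase gene Pim1 had the lowest estimate of the 9 at -0.26 (-0.41 to -0.12), at a median of 4.77 CPM in WT and 4.07 in Msh3-/- mice. The predicted gene Gm45250 stood at -0.26 (-0.40 to -0.12). Fxr1, an RNA-binding protein of the fragile X family, stood at -0.10 (-0.15 to -0.05), and the protocadherin Pcdh11x at -0.13 (-0.20 to -0.06). The cohesin release factor Wapl stood at -0.08 (-0.13 to -0.04) and the golgin Trip11 at -0.10 (-0.16 to -0.04). Pigg, an enzyme of glycolipid anchor synthesis, stood at -0.11 (-0.18 to -0.05) and Szrd1 at -0.10 (-0.16 to -0.04).

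**Figure D4:**
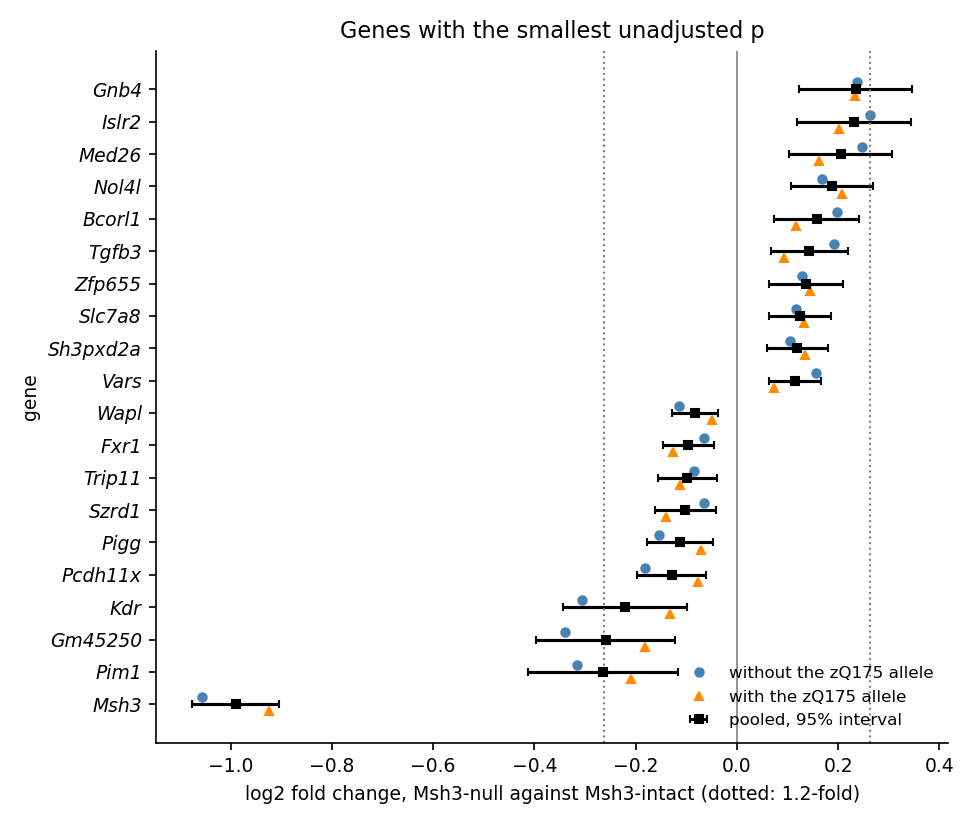
Pooled log2 fold change with its 95% interval (squares) and the estimate without (circles) and with (triangles) the zQ175 allele for the 10 genes with the smallest unadjusted p in each direction, with dotted lines at 1.2-fold. Msh3 stands at -0.99, and the other 19 lie between -0.26 and 0.23 with adjusted p-values of at least 0.319.

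Other mismatch repair genes were measured closely in these mice. Msh6 had medians of 15.9 CPM in WT and 16.7 in Msh3-/- mice, then 17.9 in zQ175 and 17.2 in zQ175:Msh3-/- mice. The 4 genotypes overlapped, and its pooled log2 fold change was -0.00 (-0.09 to 0.08), or 94.2% to 106% of the intact level. On the length-normalized scale, Msh3 at 16.8 ± 1.48 TPM (SD, n = 8) and Mlh3 at 16.6 ± 0.995 did not differ beyond their spread in WT mice. In Msh3-/- mice Msh3 stood at 9.96 ± 1.12 TPM (SD, n = 8), below Mlh3 at 16.4 ± 1.65.

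Of 25 other mismatch repair genes, 23 were tested, and the meiotic genes Msh4 and Msh5 were below the filter, with mean levels of at most 0.459 TPM in any genotype. Of the 23, 0 passed both thresholds in edgeR, 1 was higher at an unadjusted p under 0.05 and 0 were lower. The median log2 fold change was 0.01, against 0.00 over all genes, and 20 of the 23 had an interval inside 1.2-fold (87.0%, against 74.1% of all genes). Of the MutL genes, estimates stood at 0.01 for Pms2 (-0.07 to 0.08), 0.01 for Mlh3 (-0.06 to 0.08) and -0.04 for Pms1 (-0.18 to 0.10). Fan1, a nuclease that opposes CAG repeat expansion, stood at 0.01 (-0.10 to 0.12). Rpa2, a subunit of the single-strand binding protein RPA, was the gene with the small p, at 0.08 (0.00 to 0.16, adjusted p = 0.991). The sliding clamp Pcna stood at -0.02 (-0.08 to 0.04) and the ligase Lig1 at -0.07 (-0.18 to 0.04). The clamp loader subunits Rfc3 and Rfc4, at 0.12 (-0.02 to 0.26) and -0.12 (-0.32 to 0.08), had intervals that reached past 1.2-fold. So did that of Exo1, at 0.17 (-0.16 to 0.50) and only 0.286 TPM in WT mice. In the same model the zQ175 allele raised Lig1 by 0.29 and lowered Rfc5, another clamp loader subunit, with a log2 fold change of -0.44.

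Repair genes outside the mismatch route and genes of the DNA damage response gave no call. Of 29 other DNA repair genes, 0 passed both thresholds in edgeR, 1 was higher and 1 lower at an unadjusted p under 0.05, and the median log2 fold change was -0.02. These were Brca2, of homologous recombination, at 0.18 (0.03 to 0.34, adjusted p = 0.991), and Nbn, of the MRN break sensor, at -0.11 (-0.20 to -0.01, adjusted p = 0.991). Of 29 genes of the p53 and DNA damage response, 0 passed both thresholds and 1 was higher at an unadjusted p under 0.05, with a median of 0.00. That gene was Atf3, a stress-induced transcription factor, at 0.36 (0.02 to 0.70, adjusted p = 0.991) and at 0.848 CPM in WT mice, a low level. Cdkn1a, the p21 cell cycle inhibitor and a direct p53 target, stood at 0.11 (-0.02 to 0.24). Intervals were inside 1.2-fold for 25 of the 29 repair genes (86.2%) and for 21 of the 29 damage response genes (72.4%). Over all genes tested that share was 74.1%. An unadjusted p under 0.05 was found for 6.90% of the repair and 3.45% of the damage response genes, against 4.74% of all genes.

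The interferon response list, of genes that cells induce when they sense foreign or misplaced nucleic acid, had estimates mostly above 0 without a call. Of 30 genes 27 were tested, and 25 had estimates above 0 and 2 below, against 8522 of all 16610 genes above 0. The median log2 fold change was 0.16, against 0.00 over all genes. None passed both thresholds in edgeR, and 2 had an unadjusted p under 0.05, both higher (7.41%, against 4.74% of all genes). Irf9, a subunit of the ISGF3 factor, stood at 0.18 (0.03 to 0.33, adjusted p = 0.991), from 0.33 on the wild-type and 0.03 on the zQ175 background. Stat2, its partner, stood at 0.10 (0.01 to 0.19, adjusted p = 0.991). The genes of the list were weakly expressed, at a median of 4.09 CPM, and only 8 of the 27 had an interval inside 1.2-fold. Their summed level ranged from 214 to 334 CPM in intact and from 216 to 356 CPM in null mice, with medians of 241 and 253. Genes of 1 pathway vary together within a mouse, so the 25 estimates are not separate observations. Leaving out 1 mouse at a time moved the list's median between 0.11 and 0.19.

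The identity genes of the medium spiny neuron, the main cell of the striatum, all had intervals inside 1.2-fold for Msh3 loss. They marked the tissue as labelled, with a summed level over 33 genes of 18690 to 23080 CPM in WT mice. Markers of neighbouring tissue, from shorter lists, were also present in these WT mice. Their sums were 28.3 to 68.3 CPM for thalamus, 196 to 461 CPM for cortex and 35.5 to 1665 CPM for choroid plexus. In this bulk RNA, fewer cells of a type and less RNA per cell cannot be told apart. Of 33 tested genes, 0 passed both thresholds for Msh3 loss in edgeR, 1 had an unadjusted p under 0.05, and all 33 intervals were inside 1.2-fold, against 74.1% of all genes. In the same model the zQ175 allele lowered 26 of these 33 genes, against 1224 of all 16610. That 1 gene was Chrm4, the M4 muscarinic receptor of direct pathway neurons, at 0.12 (0.02 to 0.21, adjusted p = 0.991), which the zQ175 allele lowered with a log2 fold change of -0.77. Foxp1, a transcription factor of spiny neurons, stood at -0.03 (-0.12 to 0.05) for Msh3 loss, and Gpr6, a receptor of indirect pathway neurons, at 0.04 (-0.06 to 0.14). The summed level had medians of 20996 CPM in WT and 20066 in Msh3-/- mice, and of 12176 in zQ175 and 11904 in zQ175:Msh3-/- mice. The level differed with the Htt genotype, and the null and intact ranges overlapped on both backgrounds.

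The genes that the zQ175 allele changed held about the same share of small p-values for Msh3 loss as all genes tested. Of the 2277 genes, 67 were higher and 46 lower in null mice at an unadjusted p under 0.05, or 4.96%, against 4.74% of all genes tested. Of the 1224 genes that the allele lowered, 34 were higher and 33 lower. Of the 1053 genes that it raised, 33 were higher and 13 lower, against 399 higher and 388 lower of all 16610 genes. Estimates above 0 numbered 647 of the 1053 raised genes and 628 of the 1224 lowered genes, against 8522 of all 16610. The raised genes thus leaned upward, with a median log2 fold change of 0.02, against 0.00 over all genes. Their median level was 4.32 CPM. Genes can vary together within a mouse, so these estimates are not separate observations. No gene of either set passed the adjusted test for Msh3 loss.

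Glial and vascular markers gave no call either. All 10 oligodendrocyte, 10 astrocyte and 10 microglia markers had intervals inside 1.2-fold, with medians of -0.01, -0.01 and -0.03. Of these 30 genes, 2 had an unadjusted p under 0.05, both microglial and both lower. They made up 20% of the 10 microglia markers, against 2.34% of all genes lower at that p. These 2 genes included Cx3cr1, the fractalkine receptor, at -0.07 (-0.13 to -0.01, adjusted p = 0.991). The 10 endothelial markers all had estimates below 0, against 8088 of all 16610 genes, with a median of -0.04 for the list. Markers of 1 cell type can vary together within a mouse, so the 10 estimates are not separate observations. Leaving out 1 mouse at a time moved the list's median between -0.06 and -0.03. Kdr, described above, was the lowest of them, and Flt1, another VEGF receptor, stood at -0.09 (-0.20 to 0.02). The summed endothelial level ranged from 224 to 343 CPM in intact and from 253 to 340 CPM in null mice, with medians of 304 and 282. By genotype the medians were 331 CPM in WT and 297 in Msh3-/- mice, then 274 in zQ175 and 265 in zQ175:Msh3-/- mice. The null and intact ranges of this sum overlapped on both backgrounds.

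Markers of tissue next to the striatum varied between mice far more than those of its own cells. The 10 choroid plexus markers all had estimates above 0, against 8522 of all 16610 genes, with a median of 0.46 for the list. None of the 10 had an interval inside 1.2-fold. Their summed level ran from 35.5 to 1945 CPM in intact and from 40.9 to 3128 CPM in null mice, with medians of 112 and 133. Without the mouse male4 of zQ175:Msh3-/- the median log2 fold change was -0.18, and without the mouse male3 of zQ175 it was 1.06. The 10 cortical excitatory neuron markers also had estimates above 0, with a median of 0.26 and 1 interval inside 1.2-fold. Their summed level had medians of 347 CPM in WT and 364 in Msh3-/- mice, and of 429 in zQ175 and 475 in zQ175:Msh3-/- mice, and the null and intact ranges overlapped on both backgrounds. Without the mouse male1 of zQ175:Msh3-/- the median log2 fold change of these markers was 0.14, and without the mouse male3 of that genotype it was 0.34. The 8 thalamus markers had a median of -0.04. The transcription factor Shox2 among them had the widest difference between backgrounds, at 0.25 on the wild-type and -1.18 on the zQ175 background (interaction adjusted p = 0.999). Its pooled estimate depended on single mice, and ran from -0.93 to -0.20 when each mouse was left out in turn. With the zQ175 background fitted alone, Shox2 had an edgeR adjusted p of 0.0561 for Msh3 loss. The paper, with DESeq2, found only Msh3 and Shox2 to differ between zQ175 and zQ175:Msh3-/- mice. In the pooled comparison, none of the 28 genes passed both thresholds for Msh3 loss in edgeR, and 0 had an unadjusted p under 0.05. The part of neighbouring tissue in any result above was not tested.

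**Figure D5:**
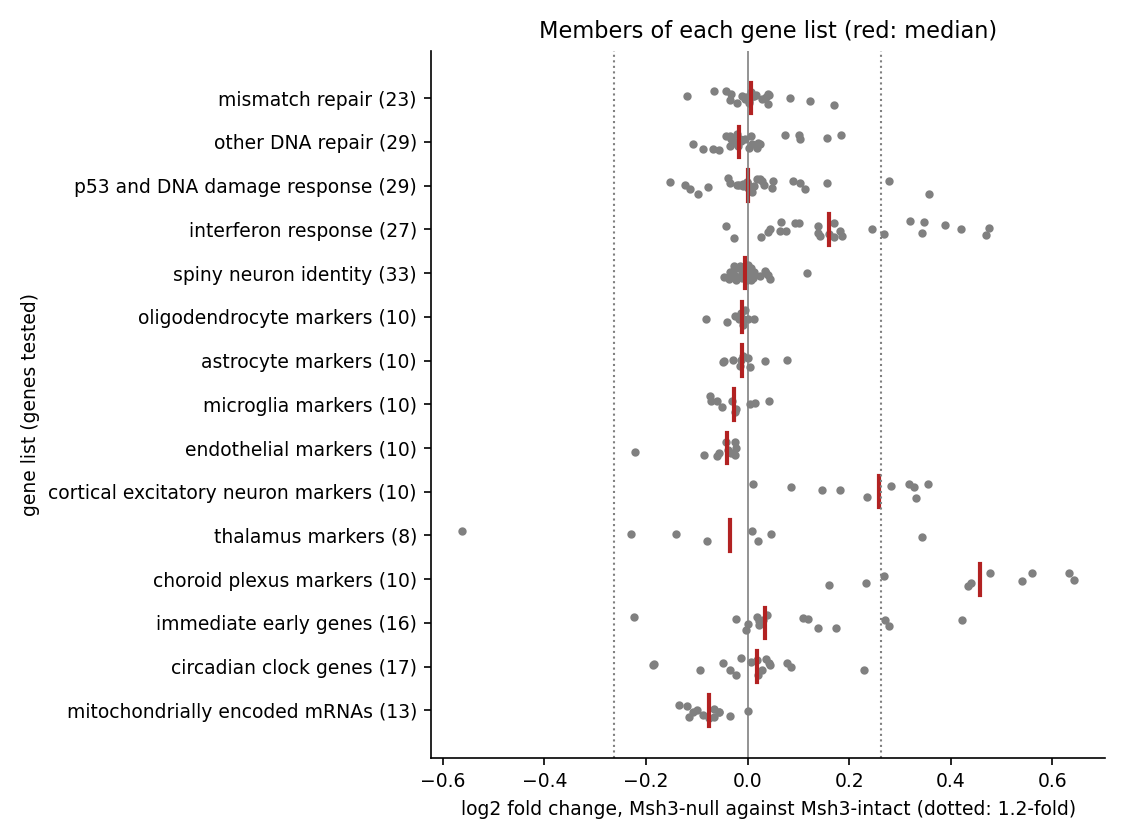
Pooled log2 fold change of every tested member of each gene list (points) with the list's median (red bar) and dotted lines at 1.2-fold, with the number tested in parentheses. Spiny neuron, oligodendrocyte, astrocyte and microglia genes lie inside 1.2-fold, while interferon response, cortical and choroid plexus genes spread widely with medians of 0.16, 0.26 and 0.46 and no called member.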

How the data were processed

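Striatal RNA of 32 mice was sequenced as paired-end reads. The table that the authors deposited for the main tests gives, for every gene and mouse, raw whole-number counts, and the submitters' processing notes name the build GRCm38.p6. The aligner, counting program and strand setting are not given in the sources used here. The authors also deposited a table named as FPKM whose columns each sum to 1000000, so it was treated as TPM.

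Counts were tested with edgeR 4.0.16 in R 4.3.3 by TMM normalization, an expression filter over the 4 genotypes and robust quasi-likelihood fits of an additive model of the zQ175 allele and Msh3 genotype. Standard errors were derived from the F statistics, and 95% intervals from the t distribution. p-values were adjusted by Benjamini-Hochberg over all genes tested, and calls needed an adjusted p under 0.05 and a 1.2-fold change. Log2 fold changes used a prior count of 0.125. The common biological coefficient of variation was 0.0975. No 2 mice of a genotype agreed within sampling noise (smallest chi-square per degree of freedom 4.00). A count of 3 reads in the shallowest mouse is 2.43e-05% of its total. The ratio of count to TPM was tested by limma 3.58.1 on log2 values, centred on each mouse's median. The scripts were tested on simulated counts.

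Named genes were Msh3, every gene past both thresholds, the 10 genes with the smallest p in each direction, Msh6, and from each list the called members and the 2 genes with the smallest p in each direction. Other mismatch repair genes and genes around Msh3 are named as members. A few genes picked in this way are not reported. The comparison and the lists were chosen with earlier results of these data known. The results were recomputed with DESeq2 1.42.0 (independent filtering off), RLE size factors, other count filters, sex or a replicate block in the model, the mean of both backgrounds, other thresholds, limma on log2 TPM with a pseudocount of 0.1 or 1, filtered at a mean of 0.1 TPM or unfiltered, each sex or background alone, and leaving out each mouse. The interaction with sex, the count to TPM ratio and list medians without each mouse were added after seeing the data. Figures were drawn with matplotlib 3.10.9 in Python 3.11.15. Gene positions and exon sequences are from GENCODE M21.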

Additional observations from a re-analysis of the deposited data

Results flagged for a closer look

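Among the CPM values of 23 genes, the Msh3 count to TPM ratio and the library totals, 100 groups of 8 mice were checked for a mouse set far from the others, and 3 had one. Chance gives about 1 such group in 20. The zQ175:Msh3-/- mouse male2 had 80.7 CPM of Sh3pxd2a, above 73.8 to 76.7 in the other 7. The zQ175:Msh3-/- mouse female1 had 6.17 CPM of Gm45250, above 4.51 to 5.24 in the other 7. The WT mouse male2 had 20.9 CPM of Pigg, below 24.0 to 26.4 in the other 7. The highest or lowest mouse lay apart by 0.587, 0.559 and 0.559 of its group's range, against a critical share of 0.526. No named gene passed an adjusted test for a difference of its Msh3 effect between Htt genotypes or sexes.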

How the results depend on the processing

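The count of 1 gene past both thresholds, Msh3, was given by the additive edgeR model and by all 17 other settings, DESeq2, limma and each sex or background alone included. Leaving out each of the 32 mice also gave 1. The log2 fold change of Msh3 ran from -1.05 on the wild-type background alone to -0.62 with limma on log2(TPM + 1), and from -1.0 to -0.98 without single mice. The interaction count stayed at 0 in its 6 other settings, and the zQ175 count ran from 1852 to 2504. The replicate block, on sex and number, gave 1 gene for Msh3 loss with a log2 fold change of -0.98, 0 for the interaction and 2234 for the zQ175 allele. It changed no call. Of 15 same-numbered pairs of mice only 3 deviated together with a correlation over 0.1 (range -0.16 to 0.18), so the numbers were not taken to pair mice. At an unadjusted p under 0.05 there were 643 to 885 genes without single mice and 564 to 1651 in other settings, the highest with no filter on low counts. Nol4l, without the WT mouse male1, was the only other gene to reach an adjusted p under 0.05 in these fits. With females alone, Nr4a1 stood at -0.48, Fosl2 at -0.31 and Per1 at -0.09, further from their pooled values than the spread between mice, and the cause was not tested. No leading gene changed direction in any setting, but these genes were picked for small p in the same mice, which favours a stable sign. The SE was largest for the 4152 genes with a mean of at most 3.68 CPM, with a median of 0.144. No source says whether mice of a genotype came from separate litters. All null mice carry 1 allele, so effects of Msh3 loss and of DNA linked to that allele cannot be told apart. With the zQ175 allele, effects of Msh3 loss and of repeat length cannot be told apart either.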

Other observations

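Lists of genes that respond to neural activity, time of day or RNA handling were also measured in the pooled comparison, and none of their members passed both thresholds in edgeR. Of 16 immediate early genes, which neurons induce on firing, 0 had an unadjusted p under 0.05. Estimates above 0 numbered 13 of the 16, against 8522 of all 16610 genes, with a median of 0.03 for these immediate early genes. Nr4a1, a nuclear receptor of this class, stood at 0.42 (95% interval -0.08 to 0.92), with means of 101 CPM in WT and 141 in Msh3-/- mice, then 78.1 in zQ175 and 100.1 in zQ175:Msh3-/- mice. Npas4 stood at -0.22 (-0.76 to 0.32), Egr3 at -0.02 (-0.16 to 0.11) and Fosl2 at 0.27 (-0.10 to 0.65). Only 4 of the 16 intervals were inside 1.2-fold. In females alone, the estimates of Nr4a1 and Fosl2 were below 0, at -0.48 and -0.31.

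Of 17 circadian clock genes, 1 was higher and 1 lower at an unadjusted p under 0.05 (11.8%, against 4.74% of all genes). The median was 0.02. Arntl, which encodes the clock activator BMAL1, stood at -0.19 (-0.31 to -0.06, adjusted p = 0.991), from -0.28 on the wild-type and -0.10 on the zQ175 background. Per1, a repressor in the same loop, stood at 0.23 (0.01 to 0.45, adjusted p = 0.991), and at -0.09 in females alone. Clock stood at -0.05 (-0.10 to 0.01) and Per3 at 0.08 (-0.03 to 0.19).

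Of the 13 mRNAs encoded by mitochondrial DNA, 12 had estimates below 0 and 3 had an unadjusted p under 0.05, all lower, with a median of -0.08. Over all genes, 8088 of 16610 estimates were below 0, 2.34% of genes were lower at that p, and the median was 0.00. The 13 mRNAs share 1 genome and are processed from common precursors, so they are not separate observations. The cytochrome oxidase subunit mt-Co2 stood at -0.12 (-0.22 to -0.02, adjusted p = 0.991) and the complex I subunit mt-Nd2 at -0.09 (-0.17 to -0.01, adjusted p = 0.991). Their summed level ranged from 59766 to 76695 CPM in intact and from 55580 to 72117 CPM in null mice, with medians of 67213 and 65817. By genotype the medians were 67972 CPM in WT and 67755 in Msh3-/- mice, then 66911 in zQ175 and 62188 in zQ175:Msh3-/- mice. The null and intact ranges of this sum overlapped on both backgrounds. Without single mice the list's median ran from -0.09 to -0.06.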
